A study of Homo sapiens with 6 samples.

Results

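The genes described are 10 members of the cyclooxygenase and prostaglandin pathway, chosen by symbol among the 60604 genes read from each count table. They comprise the cyclooxygenases PTGS1 and PTGS2, the phospholipase PLA2G4A, the prostaglandin E synthases PTGES, PTGES2 and PTGES3, the transporter SLCO2A1, the degrading enzyme HPGD and the receptors PTGER2 and PTGER4. Each symbol matched 1 gene identifier, and 8 of the 10 had enough counts to be tested. Their RNA was measured in AGS, a long-established cell line from a human gastric adenocarcinoma. In 3 libraries the cells had received 0.5 mM indomethacin for 24 h, and 3 control libraries received 0 mM, with no time given for them. Total RNA depleted of ribosomal RNA was sequenced. Whether the 3 libraries of a group stem from independent cultures is not stated, and the p-values reflect only the spread among them, which may be technical.

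Prostaglandins are made when a phospholipase frees arachidonic acid from membranes and a cyclooxygenase turns it into prostaglandin H2, which terminal synthases convert to prostaglandin E2 and its relatives. Prostaglandin E2 signals through EP receptors at the cell surface, and a transporter and a dehydrogenase remove it. In the stomach, prostaglandin E2 maintains mucus, bicarbonate and blood flow, and block of its synthesis by non-steroidal anti-inflammatory drugs such as indomethacin, an inhibitor of both cyclooxygenases, is a known source of mucosal injury. The comparison of indomethacin with control cells shows how the RNA of this pathway, from the drug's own targets to the receptors, stood after a day of treatment.

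Of the 10 genes, PTGS2 was the 1 that rose, 7 fell and 2, PTGS1 and PTGES, had too few counts to be tested. SLCO2A1, PTGER2, HPGD and PLA2G4A fell at least 2-fold, and smaller falls were seen in PTGER4, PTGES2 and PTGES3. Of these, PTGER2 had 1, 4 and 1 counts with indomethacin and passed the filter on low counts through its control libraries alone. A filter of 1 CPM in 3 libraries removed it and left 6 members lower. Changes were common in the whole table: of all genes tested 61.6% were called, 30.6% higher and 31.0% lower, with a median log2 fold change of 0.04. With a fold change of at least 2 required as well, 33.0% of genes were called (17.4% higher, 15.6% lower), against 1 member higher and 4 lower. All 8 members tested had separate ranges in the indomethacin and control libraries, as did 67.0% of genes tested (33.7% higher, 33.3% lower). Levels are in CPM, the counts of a gene relative to the library total after TMM scaling. A gene was called when the quasi-likelihood test of edgeR gave an adjusted p (Benjamini-Hochberg, over 17200 genes) under 0.05, and fold changes are on the log2 scale, indomethacin minus control.

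The libraries held 17535435 to 20094302 counts with indomethacin and 20983189 to 23221077 counts in control, so that 3 counts corresponded to 0.149 to 0.171 CPM with indomethacin and 0.129 to 0.143 CPM in control. All such intervals and floors cover counting error only. All 6 epithelial markers examined (EPCAM, KRT8, KRT18, KRT19, CDH1 and CLDN4) had counts in every library, with summed levels of 2907 to 3214 CPM with indomethacin and 3237 to 3729 CPM in control. The 4 endothelial markers, 1 of them counted in every library, summed to 0.240 to 0.523 CPM with indomethacin and 0.422 to 0.490 CPM in control, and the 6 stromal markers, 2 of them counted in every library, to 9.67 to 11.5 CPM with indomethacin and 6.52 to 8.62 CPM in control. Members of a marker list did not move together. Among the stromal genes COL1A1 rose (log2 fold change 1.02) and PDGFRB fell (fitted -4.52). PDGFRB had 3, 1 and 2 counts with indomethacin and 66, 50 and 47 in control. It thus passed the filter on low counts through its control libraries alone. Among the epithelial genes CDH1 (1.51) and CLDN4 (1.70) rose while EPCAM (-0.68) and KRT8 (-0.55) fell. The part of these markers in the results was not tested. The 6 immune markers summed to 118 to 125 CPM with indomethacin and 599 to 1367 CPM in control, almost all of it LYZ, which gastric epithelium also makes, while the leukocyte marker PTPRC stood at 0.0849 ± 0.0216 CPM with indomethacin and 0.233 ± 0.150 CPM in control (SD, n = 3). Mitochondrially encoded genes took 16.7% to 19.7% of counts with indomethacin and 22.8% to 26.8% in control. With library sizes that left out mitochondrial and small structured RNAs, 1 member was again called higher and 7 lower. In bulk RNA, fewer cells of a kind and less RNA per cell cannot be told apart.

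PTGS2 and PLA2G4A are neighbours on chromosome 1 (build hg38) and moved in opposite directions, so the 250 bases before the RefSeq start of each are shown here (build GRCh38.p14). The PTGS2 window is chr1:186680424-186680673 on the minus strand, and the PLA2G4A window is chr1:186828699-186828948 on the plus strand. In the deposited annotation PTGS2 reaches 186680922 on its 5′ side, so its window lies within that gene, though in no exon of it. Capitals mark matches to the motifs searched.
PTGS2: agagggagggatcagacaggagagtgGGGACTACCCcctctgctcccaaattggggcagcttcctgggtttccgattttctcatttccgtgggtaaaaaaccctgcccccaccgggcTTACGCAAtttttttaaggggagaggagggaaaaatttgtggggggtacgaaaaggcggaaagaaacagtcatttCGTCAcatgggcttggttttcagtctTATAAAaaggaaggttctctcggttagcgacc
PLA2G4A: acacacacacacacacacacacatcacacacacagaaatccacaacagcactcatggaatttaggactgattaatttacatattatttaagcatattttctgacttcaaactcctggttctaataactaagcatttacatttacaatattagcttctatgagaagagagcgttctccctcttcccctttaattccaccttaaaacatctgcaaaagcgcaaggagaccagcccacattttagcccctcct
The motifs were an NF-kappaB-type motif (GGGA, any 4 bases, CC), a C/EBP-type TTNNGNAA, the CRE half-site CGTCA, the AP-1 motif TGANTCA and the CHOP-ATF4 composite TGATGNAA, on both strands, and the TATA box TATAAA on the gene's strand.

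The PTGS2 window held 4 of these 6 motifs, at 224 to 215 bases before the start for the NF-kappaB-type match, 133 to 126 for the C/EBP-type match, 58 to 54 for the CRE half-site and 32 to 27 for the TATA box. Of 35116 promoter windows of the same length, 22.6% held the NF-kappaB-type motif, 33.2% the C/EBP-type motif, 21.2% the CRE half-site, 6.80% the TATA box, 6.57% the AP-1 motif and 3.14% the CHOP-ATF4 composite. The NF-kappaB, C/EBP and CRE elements of this promoter are textbook entry points for inducers of cyclooxygenase-2. The PLA2G4A window held none of the 6. Of the 9 members with a window in the RefSeq table, PTGS2 was the 1 with a TATA box match. These letters are a description of the windows and no measure of factor binding.

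PTGS2 encodes cyclooxygenase-2, the inducible cyclooxygenase (identifier ENSG00000073756, chromosome 1, 186671791 to 186680922, minus strand). It had 25.6, 28.8 and 45.4 CPM in the 3 indomethacin libraries, against 4.41, 2.99 and 3.61 CPM in the 3 control libraries. Every indomethacin library lay above every control library, and indomethacin replicate 3 was the highest of the 6. The rise was 9.07-fold (log2 fold change 3.18 with an SE of 0.22, edgeR adjusted p = 4.0e-08; n = 3 per group), and 98.1% of all genes tested had a lower fold change.

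PTGS1 encodes cyclooxygenase-1, the constitutive form that is held to supply the prostaglandins of the resting stomach (ENSG00000095303, chromosome 9, 122370530 to 122395703). It had 0 counts in every indomethacin library and 1 count in control, in replicate 2. Both groups were therefore under the floor of 3 counts per library, and no fold change is given. Nearly all cyclooxygenase RNA detected in these cells was thus that of PTGS2, which had 1875 counts over the indomethacin libraries and 237 over the control libraries.

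**Figure D1:**
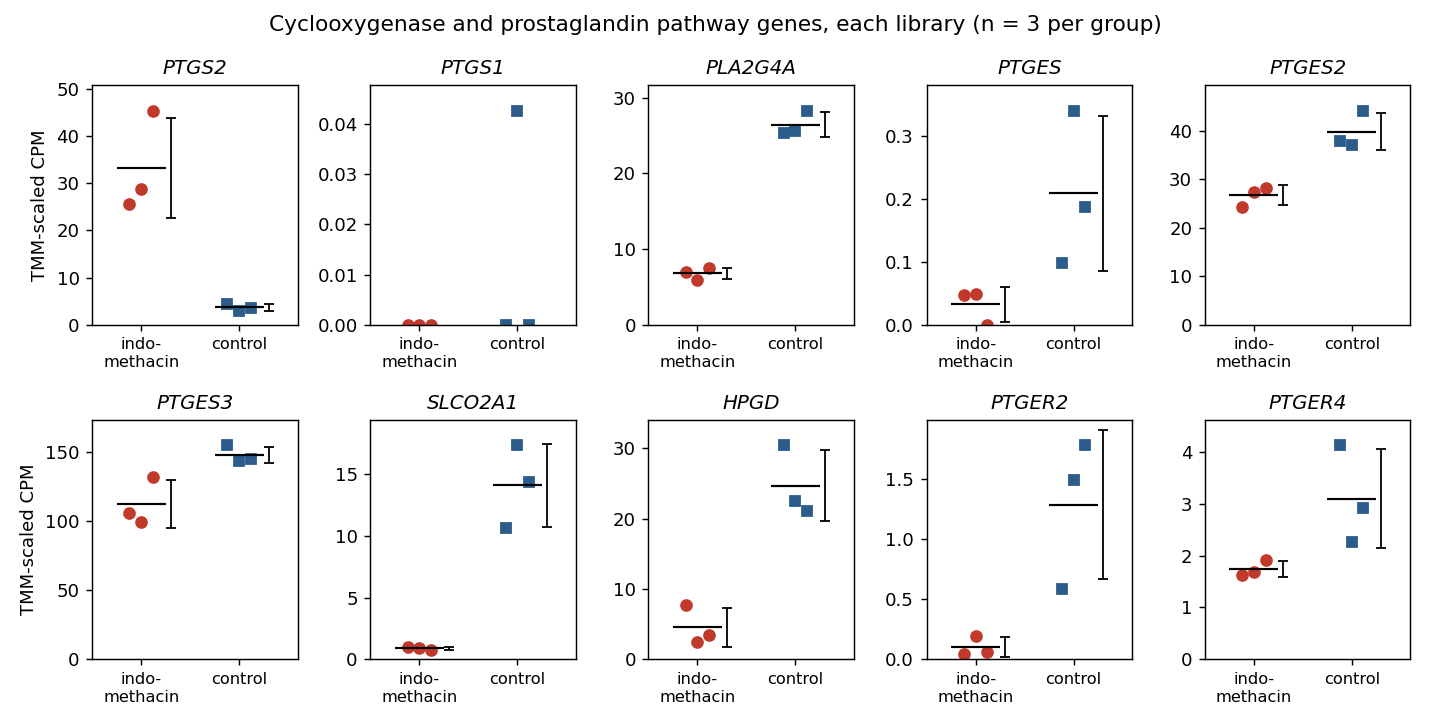
Scaled CPM of the 10 genes in each library (points; y axes start at 0 and differ between genes), with the mean (line) and SD (bar) of each group, n = 3 per group; no mean is drawn for PTGS1, which had a single count. The 3 indomethacin points lie above the 3 control points for PTGS2 and below them for the 7 genes that fell.

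PLA2G4A encodes the cytosolic phospholipase that frees arachidonic acid from membrane lipids (ENSG00000116711, chromosome 1, 186828949 to 186988981, plus strand). It had 6.94, 5.97 and 7.45 CPM in the indomethacin libraries and 25.3, 25.6 and 28.3 CPM in the control libraries. Replicates of a group lay close together and the groups did not overlap. The fall was 3.90-fold (log2 fold change -1.96 with an SE of 0.14, edgeR adjusted p = 4.1e-08; n = 3 per group).

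The ratio of PTGS2 to PLA2G4A within a library, which does not depend on scaling between libraries, was 1.94, 2.54 and 3.20 with indomethacin and 0.0916, 0.0614 and 0.0669 in control, in CPM per kb of exon. The log2 of this ratio differed by 5.12, or 34.7-fold. A two-sided exact permutation test gave p = 0.1, the smallest that 3 against 3 allows, and 0.133 after Benjamini-Hochberg adjustment over the 4 ratios and shares tested.

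The 148 kb between PTGS2 and PLA2G4A separated genes that changed in opposite directions. Of 20 genes within 1000 kb of PTGS2, itself included, 7 were tested, of which 4 rose and 2 fell, PTGS2 and PLA2G4A among them, where 61.6% of all genes tested were called. PACERR, a long non-coding RNA that starts beside the PTGS2 promoter on the other strand and is known to act on PTGS2 transcription, had 31, 24 and 20 counts with indomethacin and 7, 2 and 5 counts in control. It passed the filter on low counts through its indomethacin libraries alone, and its fitted rise was 5.84-fold (log2 fold change 2.54 with an SE of 0.46, edgeR adjusted p = 3.0e-04; n = 3 per group). PTGS2 and PACERR share 219 exonic bases on opposite strands, and the strand setting of the counting was not given, so reads in this stretch cannot be assigned with certainty. PACERR exons also cover 52 of the 250 bases of the PTGS2 window printed above. On the other side of PTGS2, the non-coding PDC-AS1 rose (log2 fold change 1.28 with an SE of 0.28, edgeR adjusted p = 0.0012), as did ODR4, a gene 250.4 kb away (0.61, SE 0.10; edgeR adjusted p = 1.6e-04). TPR, a nucleoporin gene 296 kb away, fell slightly (log2 fold change -0.37 with an SE of 0.10, edgeR adjusted p = 0.0056), and PRG4, the lubricin gene, did not pass (log2 fold change 0.37, edgeR adjusted p = 0.49).

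**Figure D2:**
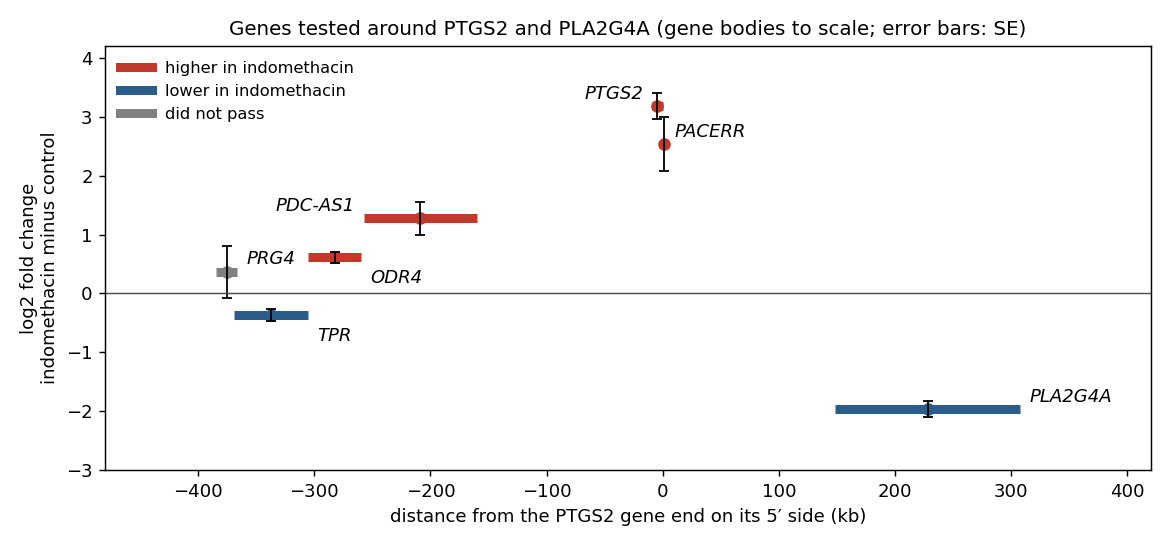
Log2 fold change (indomethacin minus control) of the 7 genes tested within 1000 kb of PTGS2, against distance in kb from the 5′ end of the PTGS2 gene; bars along x are gene bodies to scale, points their centres and vertical bars the SE. PTGS2 (3.18) and PACERR (2.54) stand highest and PLA2G4A (-1.96), 148 kb away, lowest.

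The prostaglandin E synthases differed in level and in the size of their change. PTGES encodes the inducible microsomal synthase that is usually paired with cyclooxygenase-2 (ENSG00000148344, chromosome 9, 129738331 to 129753042). It had 1, 1 and 0 counts in the indomethacin libraries and 2, 8 and 4 counts in the control libraries. The ratio of control to indomethacin counts was 6.21 with a 95% counting interval of 1.43 to 56.3. It was too low for the main test, and without a filter on low counts its log2 fold change of -2.53 did not pass (edgeR adjusted p = 0.096).

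PTGES2, a membrane-associated synthase (ENSG00000148334, chromosome 9, 128120693 to 128128462), had 24.4, 27.4 and 28.3 CPM with indomethacin and 38.0, 37.2 and 44.2 CPM in control. The groups did not overlap, and the fall was 1.49-fold (log2 fold change -0.58 with an SE of 0.12, edgeR adjusted p = 6.9e-04; n = 3 per group). PTGES3, the cytosolic synthase better known as the HSP90 co-chaperone p23 (ENSG00000110958, chromosome 12, 56663341 to 56688408), had 106, 99.7 and 132 CPM with indomethacin and 155, 144 and 145 CPM in control. Its fall was the smallest of the 7, 1.31-fold (log2 fold change -0.39 with an SE of 0.12, edgeR adjusted p = 0.010; n = 3 per group). The call was lost with upper-quartile factors (edgeR adjusted p = 0.052) and without indomethacin replicate 2 (0.063). PTGES3 has processed copies that could take some of its reads; the most counted of them, PTGES3P1, had 1.43 ± 0.167 CPM with indomethacin and 2.40 ± 0.940 CPM in control (SD, n = 3).

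PTGES made up 0.0713%, 0.0776% and 0% of the summed CPM per kb of the 3 synthases with indomethacin and 0.0999%, 0.371% and 0.199% in control. The inducible synthase was thus a trace of the synthase RNA in every library, and the groups did not overlap (exact permutation test, two-sided, p = 0.1, adjusted 0.133; n = 3 per group). The shares rest on 1, 1 and 0 counts of PTGES with indomethacin and 2, 8 and 4 in control, so this separation lies near the floor of 3 counts. The difference was -0.174 percentage points, or -0.0996 without control replicate 2. The share of 0 in indomethacin replicate 3 rests on no count, under a floor of 0.171 CPM.

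SLCO2A1 encodes the prostaglandin transporter, which carries prostaglandins into cells for breakdown (ENSG00000174640, chromosome 3, 133932701 to 134052184, minus strand). It had 0.998, 0.945 and 0.781 CPM in the indomethacin libraries and 10.6, 17.3 and 14.3 CPM in the control libraries. With 21, 19 and 13 counts against 217, 405 and 304, the groups lay far apart. The fall was 15.3-fold (log2 fold change -3.94 with an SE of 0.24, edgeR adjusted p = 1.2e-08; n = 3 per group), and 0.808% of all genes tested had a lower fold change.

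HPGD encodes 15-hydroxyprostaglandin dehydrogenase, the enzyme that starts the breakdown of prostaglandin E2 (ENSG00000164120, chromosome 4, 174490175 to 174523154, minus strand). It had 7.70, 2.54 and 3.48 CPM in the indomethacin libraries and 30.4, 22.5 and 21.1 CPM in the control libraries. Indomethacin replicate 1 stood above the other indomethacin libraries, but the groups did not overlap. The fall was 5.33-fold (log2 fold change -2.41 with an SE of 0.30, edgeR adjusted p = 8.2e-06; n = 3 per group). Without indomethacin replicate 1 the log2 fold change was -3.06. A gene on the other strand shares 314 of the exonic bases of HPGD and had at most 3 counts in any library.

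PTGS2 stood at 3.36, 11.5 and 13.1 times the level of HPGD per kb with indomethacin and at 0.146, 0.134 and 0.173 times in control. The cyclooxygenase was thus above the dehydrogenase in every indomethacin library and below it in every control library. The log2 of the ratio differed by 5.73, or 53.0-fold (two-sided exact permutation p = 0.1, adjusted 0.133, n = 3 per group). Without indomethacin replicate 1 the log2 difference was 6.35.

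PTGER2 and PTGER4 encode EP2 and EP4, the prostaglandin E2 receptors that raise cyclic AMP. PTGER2 (ENSG00000125384, chromosome 14, 52314305 to 52328598) had 1, 4 and 1 counts in the indomethacin libraries and 12, 35 and 38 counts in the control libraries. It passed the filter on low counts through its control libraries alone. The ratio of control to indomethacin counts was 12.6 with a 95% counting interval of 5.54 to 35.2, and the fitted log2 fold change was -3.57 (SE 0.62; edgeR adjusted p = 2.1e-04; n = 3 per group). That value was -4.46 without indomethacin replicate 2.

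PTGER4 (ENSG00000171522, chromosome 5, 40679915 to 40693735) had 1.62, 1.69 and 1.92 CPM in the indomethacin libraries and 4.12, 2.26 and 2.91 CPM in the control libraries. The groups did not overlap, though control replicate 2 lay close to the indomethacin libraries. Its fall was 1.77-fold (log2 fold change -0.83 with an SE of 0.29, edgeR adjusted p = 0.023; n = 3 per group). The call was lost without control replicate 1 (log2 fold change -0.62, edgeR adjusted p = 0.092) and without indomethacin replicate 2 (-0.81, edgeR adjusted p = 0.064).

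Among the 4 EP receptor genes, PTGER4 took 74.8%, 54.2% and 77.4% of the summed CPM per kb with indomethacin and 79.0%, 51.1% and 51.0% in control. These ranges overlapped (difference 8.44 percentage points; exact permutation test, two-sided, p = 0.6; n = 3 per group). The difference was 17.8 points without control replicate 1, 15.7 without indomethacin replicate 2 and between 3.73 and 5.46 without any of the other libraries in turn. The other EP receptor genes were near the floor: PTGER1 had 4, 9 and 3 counts with indomethacin and 2, 0 and 2 in control, and PTGER3 had at most 1 count in any library.

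**Figure D3:**
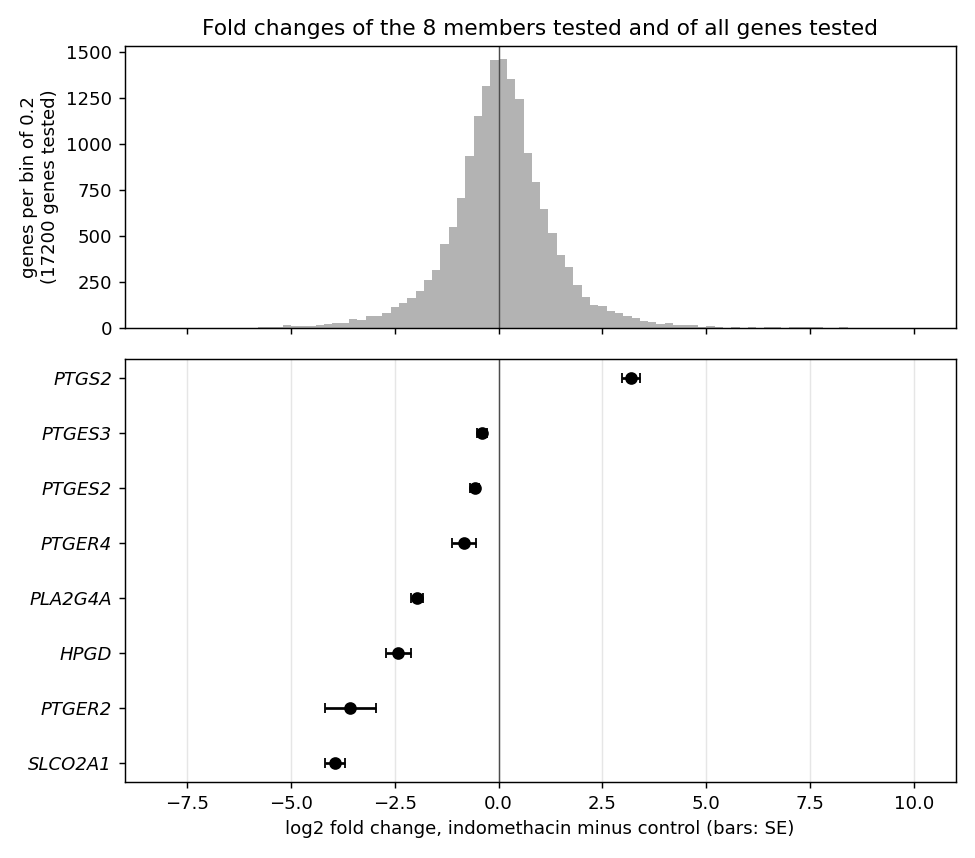
Upper panel, number of genes per bin of log2 fold change over all 17200 genes tested; lower panel, log2 fold change (indomethacin minus control) with SE for the 8 members tested. PTGS2 lies alone on the right at 3.18, and the other 7 run from -0.39 for PTGES3 to -3.94 for SLCO2A1.

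Per kb of exon, the order of the levels changed between the groups. With indomethacin PTGES3 led at 33.2 ± 5.11 CPM per kb, followed by PTGS2 at 6.07 ± 1.94, PTGES2 at 4.39 ± 0.339 and PLA2G4A at 2.36 ± 0.262 (SD, n = 3). In control PTGES3 led at 43.5 ± 1.82 CPM per kb, followed by PLA2G4A at 9.17 ± 0.585, PTGES2 at 6.55 ± 0.631, HPGD at 4.46 ± 0.910 and SLCO2A1 at 2.74 ± 0.648, and PTGS2 came the seventh at 0.669 ± 0.131. PTGS2 and PTGES2 were close with indomethacin, at lowest and highest values of 4.67 and 4.65 CPM per kb, and HPGD overlapped PTGER4 there (0.827 ± 0.497 and 0.492 ± 0.0451 CPM per kb). In control, PTGER4 overlapped PTGS2, and PTGS2 overlapped PTGER2 (0.523 ± 0.253 CPM per kb). PTGES and PTGS1 had the lowest means in both groups, though with indomethacin PTGER2 overlapped PTGES (0.0414 ± 0.0341 and 0.0171 ± 0.0149 CPM per kb) and PTGES overlapped PTGS1.

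The other genes of the pathway were read as 8 lists, which hold 112 different genes, 78 of them tested. Of these 36 rose, 15 fell and 27 did not pass, with a median log2 fold change of 0.47 against 0.04 over all genes tested, of which 30.6% rose and 31.0% fell. These shares are the background for each list below. Among the 36 are genes, named below, that passed the filter on low counts mainly through their indomethacin libraries. The lists were also chosen with earlier results of these data known, so the counts are a description.

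Phospholipases and other enzymes of arachidonate release moved both ways. Of 17 tested, 7 rose and 4 fell (median log2 fold change 0.37). Among the 7, PLA2G2F had 10, 19 and 11 counts with indomethacin and 2, 2 and 1 in control. PLA2G4F (11, 5 and 3 counts in control) and FAAH (14, 3 and 7 counts in control) were low in control too. All of these passed the filter on low counts mainly through their indomethacin libraries. PLA2G6, also among the 7, shares 326 exonic bases with MAFF on the other strand, which rose as well. PLA2G2A, a secreted phospholipase, fell to 22.4 ± 2.70 CPM with indomethacin, against 85.9 ± 4.97 CPM in control (log2 fold change -1.94, edgeR adjusted p = 9.0e-09). PLA2G4C, a calcium-independent relative of PLA2G4A, had 18.6, 16.6 and 14.5 CPM with indomethacin and 3.53, 2.77 and 1.97 CPM in control (log2 fold change 2.59, edgeR adjusted p = 1.2e-07), and 326 of its exonic bases overlap PLA2G4C-AS1 on the other strand. PNPLA8 (1.32) rose, and PLAAT3 (-1.25), ACSL4, which activates arachidonic acid (-0.88), and MGLL, which splits monoacylglycerols (-0.53), fell.

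Enzymes that convert prostaglandin H2 or reduce prostanoids were mixed. Of 7 tested, 2 rose and 3 fell (median log2 fold change -0.28). PRXL2B, a prostaglandin F synthase, averaged 2.96 ± 0.654 CPM with indomethacin and 15.2 ± 1.21 CPM in control (log2 fold change -2.35, edgeR adjusted p = 1.1e-07), and GSTM2 (-1.71) and the carbonyl reductase CBR1 (-0.65) fell. AKR1C3, a prostaglandin F synthase, rose (0.94), as did CBR3 (fitted 2.41, or 3.13 without control replicate 2 and 1.82 without control replicate 3). CBR3 passed the filter on low counts through its indomethacin libraries alone. GSTM2 and AKR1C3 have close relatives, and CBR1, CBR3 and PRXL2B overlap exons of a gene on the other strand, so their values are uncertain. This holds most for CBR3, which shares 710 of its 998 exonic bases with CBR3-AS1. That gene had 177, 162 and 161 counts with indomethacin and 78, 45 and 39 in control. The genes opposite CBR1 and PRXL2B had at most 7 and 1 counts in any library. PTGDS, HPGDS and PTGIS, the terminal synthases of prostaglandin D2 and prostacyclin, had too few counts to be tested.

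Among 8 tested genes listed under prostanoid transport and breakdown, CYP4F3 included, 3 rose and 1 fell (median log2 fold change 0.24). PTGR1, a reductase that acts on the product of HPGD, had 187, 170.0 and 183 CPM with indomethacin and 37.7, 35.5 and 34.3 CPM in control (log2 fold change 2.33 with an SE of 0.10, edgeR adjusted p = 7.2e-10). The enzyme named for the following step of breakdown was thus higher where HPGD was lower. ABCC4, an exporter of prostaglandin E2, had 45.5, 34.3 and 28.2 CPM with indomethacin and 86.1, 70.9 and 71.6 CPM in control (log2 fold change -1.08, edgeR adjusted p = 3.6e-05). The organic anion transporter SLCO4A1 rose (1.59), and CYP4F3, a leukotriene hydroxylase, had 61, 51 and 55 counts with indomethacin and 2, 0 and 1 counts in control, so that it too passed the filter through its indomethacin libraries alone. The ratio of these counts, scaled to library size, was 62.8 with a 95% counting interval of 21.1 to 307.

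Of 8 other prostanoid receptor genes, 7 had too few counts to be tested. The remaining gene, PTGFRN, a regulator of the prostaglandin F receptor, averaged 43.0 ± 3.84 CPM with indomethacin and 104 ± 11.7 CPM in control (log2 fold change -1.28, edgeR adjusted p = 5.2e-07). In the list of the lipoxygenase and leukotriene branch, which also holds EPHX2 from outside that branch, 2 of 8 tested genes rose and 2 fell (median log2 fold change 0.41). EPHX2, the soluble epoxide hydrolase, fell (-2.41), and LTA4H, which makes leukotriene B4, fell slightly (-0.35, a call lost with upper-quartile factors). ALOXE3, a lipoxygenase of the epidermis, passed the filter on low counts through its indomethacin libraries alone. It had 1.96 ± 0.0774 CPM with indomethacin, against 0.192 ± 0.262 CPM in control, with a fitted log2 fold change of 3.36, or 5.23 without control replicate 1 and 2.76 without control replicate 3. The leukotriene B4 receptor gene LTB4R rose (0.79 on the log2 scale, adjusted p = 0.012 by edgeR), a call lost without control replicate 2 (0.054), control replicate 3 (0.071) or indomethacin replicate 2 (0.075).

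**Figure D4:**
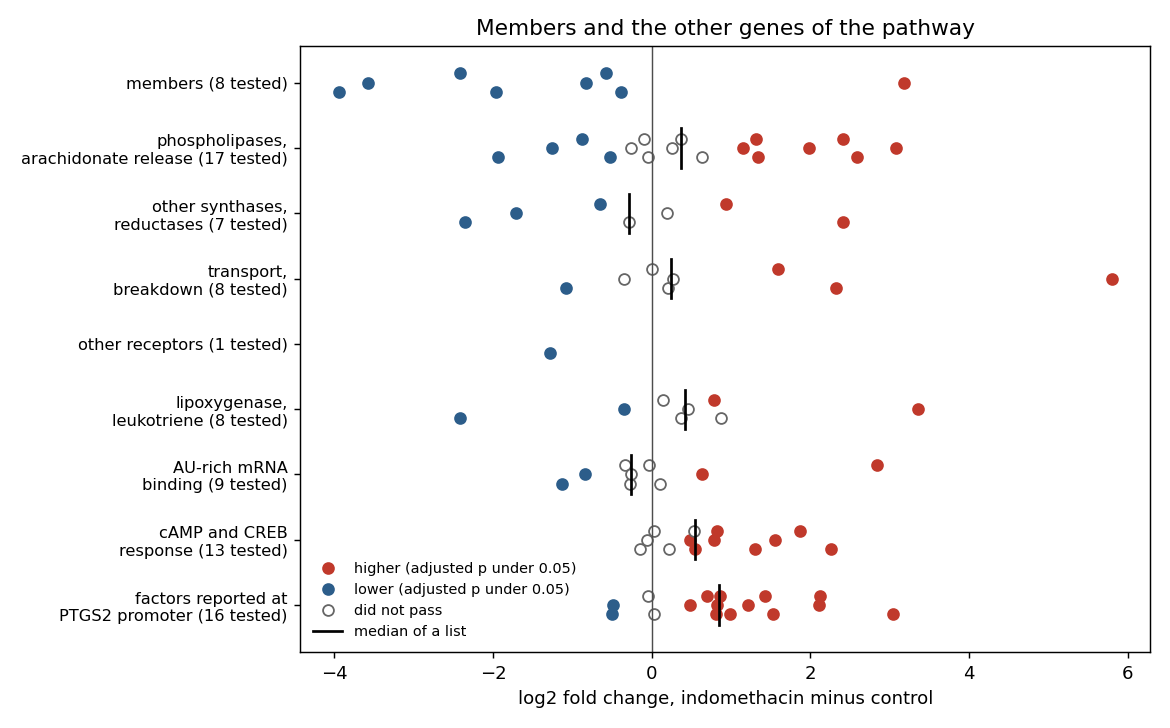
Log2 fold change (indomethacin minus control) of each tested gene among the members and the 8 lists of other pathway genes; filled points passed edgeR's test (red higher, blue lower), open points did not, and black lines are medians of lists with more than 1 gene tested. The members have 1 red and 7 blue points, and the list of factors linked to the PTGS2 promoter has 12 red and 2 blue points. Members and lists were chosen with earlier results of these data known.

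PTGS2 mRNA carries AU-rich elements, whose binding proteins set its lifetime. Of 9 such proteins tested, 2 rose and 2 fell (median log2 fold change -0.26), where 30.6% of all genes tested rose and 31.0% fell. ZFP36, or tristetraprolin, which destabilises such mRNAs, had 139, 173 and 136 CPM with indomethacin and 30.6, 15.0 and 17.3 CPM in control (log2 fold change 2.84 with an SE of 0.22, edgeR adjusted p = 8.7e-08). ELAVL1, or HuR, which stabilises them, had 29.7, 32.2 and 31.1 CPM with indomethacin and 51.5, 51.6 and 64.0 CPM in control (log2 fold change -0.84 with an SE of 0.12, edgeR adjusted p = 2.5e-05). ZFP36L2, a relative of ZFP36, rose (0.64) and TIA1, a translational repressor, fell (-1.13). Other destabilising proteins of the list did not pass, with log2 fold changes of -0.33 for ZFP36L1, -0.27 for KHSRP and -0.26 for HNRNPD.

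Of 16 transcription factors reported at the PTGS2 promoter, all were tested, 12 rose and 2 fell (median log2 fold change 0.85), where 30.6% of all genes tested rose and 31.0% fell. This list was chosen with earlier results of these data known, so the count is a description. Any part of these factors in the rise of PTGS2 was not tested. CEBPB, a C/EBP factor, averaged 79.0 ± 15.1 CPM with indomethacin and 18.3 ± 4.65 CPM in control (log2 fold change 2.11, edgeR adjusted p = 2.1e-07). ATF3, a stress-induced factor of the CREB family, had 106, 151 and 216 CPM with indomethacin and 32.6, 13.9 and 10.9 CPM in control (3.04, edgeR adjusted p = 3.4e-06). The AP-1 subunit JUN (1.53) and the C/EBP factor CEBPG (0.99) rose, and NFKB1 (-0.50), the precursor of the NF-kappaB p50 subunit, and USF1 (-0.48) fell.

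EP2 and EP4 signal through cyclic AMP. Of 13 tested genes of the cyclic AMP and CREB list, 8 rose and 0 fell (median log2 fold change 0.55), where 30.6% of all genes tested rose and 31.0% fell. The list holds response genes and also CREB1, CRTC2 and CRTC3, which carry out the response, and CRTC2 and CRTC3 were among the 8. SIK1, also among the 8, had overlapping groups. The list was chosen with earlier results of these data known, and signalling by the receptors was not tested. At an unadjusted p under 0.05, too, 0 of the 13 were lower by edgeR, limma-voom or DESeq2. These tools were run on the same 6 libraries, so the repeated count is no independent support. The phosphodiesterase gene PDE4D averaged 19.1 ± 4.68 CPM with indomethacin and 7.77 ± 1.33 CPM in control (log2 fold change 1.30, edgeR adjusted p = 5.1e-05). NR4A2 (1.55) and the coactivator gene CRTC2 (0.82) rose, as did the clock gene PER1 (2.26, or 1.57 without indomethacin replicate 3).

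The genes whose profile over the 6 libraries lay nearest to that of PTGS2, by Euclidean distance of mean-centred log2 CPM, were FBXW10 (distance 0.40), MAFF (0.43), SDCBP2 (0.46), CES1 (0.50) and SNAI1 (0.50). CES1 had 19, 22 and 37 counts with indomethacin and 2, 0 and 1 in control. It passed the filter on low counts through its indomethacin libraries alone. Its fitted log2 fold change was 4.73, and the prior count of 2 in log2 CPM shrinks differences at such low counts. MAFF, a small MAF transcription factor, had 37.7, 42.9 and 48.5 CPM with indomethacin and 5.25, 3.50 and 4.55 CPM in control. FBXW10 had 9.65, 12.7 and 19.5 CPM with indomethacin and 2.06, 1.58 and 1.74 CPM in control. Indomethacin replicate 3 was the highest library for PTGS2 and for all 5 genes, for SNAI1 only narrowly (11.9 against 11.6 CPM in replicate 2). Because the genes were chosen by likeness over these same libraries, this shared order is favoured by the choice. With 2 groups of 3 libraries such likeness mainly records the difference between groups, and it is given as a description.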

How the data were processed

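The authors deposited raw read counts per gene, 1 table a library, with exon coordinates and lengths, per the file headers. The submitters' processing notes name bcl2fastq, FastQC 0.11.7, cutadapt 1.16, HISAT2 2.1.0, SAMtools, featureCounts, DESeq2 and build hg38, without order or settings. Annotation release, strand setting and treatment of multiply mapped reads are not given in the sources used here. Of 60607 lines per library, 3 were broken and left out. Gene names were matched by identifier (42027 matched). Groups follow the sample titles.

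Genes were kept by filterByExpr, scaled by TMM and tested with edgeR 4.0.16 (R 4.3.3; glmQLFit and glmQLFTest, group as the only term), with Benjamini-Hochberg adjustment over 17200 genes. The SE of a fold change was derived from its test statistic. Ratios and shares were compared with exact permutation tests (scipy 1.17.1), and the ratio of PTGES to HPGD was left out because PTGES was at 0 in a library. Alternatives were limma-voom (limma 3.58.1), DESeq2 1.42.0, other scaling and filters, the replicate number as a block, a 2-fold threshold and each library left out. In simulated data with known changes, edgeR, which tested 16106 genes, recovered 82.1% of those changed 2-fold, and 13 of its 169 calls were false. No libraries looked like repeat deposits: chi-square values over degrees of freedom for same-group pairs were 6.99 to 21.9. Promoter windows are from RefSeq.

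Named genes were the members, up to 4 called genes per list with the smallest adjusted p and a mean of 1 CPM or more, those called against the majority of a list, tested genes within 1000 kb of PTGS2, and the 5 profiles nearest to PTGS2. PLA2G2F, PLA2G4F, PLA2G6, FAAH, HNRNPD, CREB1, CRTC3 and SIK1 were named after their values were seen. So were ZFP36L1, KHSRP, CBR3-AS1, PTGES3P3, the synthase genes too low to test and the single marker genes. The members and lists were chosen with earlier results of these data known.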

Additional observations from a re-analysis of the deposited data

How the results depend on the processing

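PTGS2 kept its rise (log2 fold change 2.89 to 3.31) and PLA2G4A, SLCO2A1, HPGD and PTGES2 their falls (-2.07 to -1.84, -4.15 to -3.80, -3.06 to -2.12 and -0.68 to -0.46) in all 14 other fits, and PTGER2 (-4.46 to -3.23) in the 13 that tested it; a filter of 1 CPM in 3 libraries removed PTGER2. PTGES3 missed the threshold with upper-quartile factors (-0.28, adjusted p = 0.052), a scaling that raised the median of all genes tested by 0.12, and ranged over -0.53 to -0.31 with a library left out. PTGER4 ranged over -1.05 to -0.62 with a library left out; the cause was not tested. With a 2-fold threshold 4 members were lower and 1 higher, beside 2676 lower and 2999 higher genes in the whole table, by construction fewer. With the replicate number as a block, 1 member was higher and 7 lower, and 5249 genes were higher and 5352 lower; same-numbered libraries correlated at 0.0233, 0.0117 and 0.132 in their deviations from the group means, so the numbers were not taken as pairs. Of 544 values for 39 single genes of the lists and the neighbourhood, 540 kept direction and side of the threshold, and 4, for LTA4H and LTB4R, lost the call. Depth limits PTGS1, PTGES, PTGER1 and PTGER3, whose counts were too few for the main test.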
